A study of Mus musculus with 15 samples.

Results

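The erythroid genes described here are transcripts typical of maturing red blood cells, measured in the auditory nerve of mice after loud noise. Of 8 listed symbols (Alas2, Epb42, Slc4a1, Klf1, Rhag, Ahsp, Ermap and Trim10), 7 were found among the 18193 genes that a probe set paired with 1 gene measured, through 10 probe sets in all. Ahsp, which encodes a chaperone of alpha globin, had no such probe set in the annotation used and was not analysed here. The list was taken by symbol, not by level.

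The study asked which transcripts of the nerve change after noise. Affymetrix arrays measured 15 CBA/CaJ mice aged 5 to 12 weeks, 3 in each of 5 groups. The unexposed control group held 3 females. Groups taken immediately, 7 days and 14 days after noise each held 2 females and 1 male, and the group taken 1 day after noise held 3 males. Exposure lasted 2 h at 106 dB SPL, with noise of an octave band between 8 and 16 kHz. Both ears of an animal were joined into 1 sample, so each array is a separate animal and replicates are animals. The tissue was the modiolus, the core of the cochlea, from which the bony shell, the lateral wall and the bulk of the sensory epithelium had been dissected away, and 50 ng of its total RNA was labelled. The labels give no genetic change or other agent in any group. In tissue of this kind, fewer cells of a type and less RNA per cell cannot be told apart.

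Red cells are made in bone marrow, where precursors load themselves with haemoglobin, build a specialised membrane and then expel their nucleus. The young cells that enter the blood, reticulocytes, still carry some RNA, which is lost as they mature. GATA1, which binds GATA sites, and KLF1, which binds CACCC sites, are transcription factors that turn on many genes of this programme. The auditory nerve itself is a tissue of neurons, Schwann cells, vessels and connective tissue, and the modiolus that holds it is bony.

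Promoter sequence from RefSeq, build GRCm38.p6, was given for 6 of the 7 genes, and Slc4a1 was not matched. In each window of 300 bases, from 250 before to 50 after the annotated start, the letters GATAA and CACCC were searched on both strands. The 100 bases printed for each gene are those around its GATAA match, which reads TTATC on the gene's strand in every case. Each is shown 5′ to 3′ on the strand of the gene, with TTATC and any CACCC or GGGTG within the printed stretch in capitals. Erythroid factors are known to bind such letters. The 6 windows share TTATC, while that of Epb42 has no CACCC or GGGTG. The stretches lie at chrX:150547286-150547385 on the plus strand (Alas2), chr8:84901857-84901956 plus (Klf1), chr17:40811049-40811148 plus (Rhag), chr2:121037028-121037127 minus (Epb42), chr4:119190008-119190107 minus (Ermap) and chr17:36869366-36869465 plus (Trim10).
Alas2: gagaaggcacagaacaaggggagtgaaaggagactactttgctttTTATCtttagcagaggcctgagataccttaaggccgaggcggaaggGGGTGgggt
Klf1: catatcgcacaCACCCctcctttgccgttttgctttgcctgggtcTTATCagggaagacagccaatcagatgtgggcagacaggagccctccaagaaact
Rhag: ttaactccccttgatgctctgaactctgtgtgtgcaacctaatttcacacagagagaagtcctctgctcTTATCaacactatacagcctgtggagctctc
Epb42: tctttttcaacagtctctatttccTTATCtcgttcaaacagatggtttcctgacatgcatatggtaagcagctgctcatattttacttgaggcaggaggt
Ermap: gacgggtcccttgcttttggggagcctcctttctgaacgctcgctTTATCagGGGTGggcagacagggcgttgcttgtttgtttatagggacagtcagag
Trim10: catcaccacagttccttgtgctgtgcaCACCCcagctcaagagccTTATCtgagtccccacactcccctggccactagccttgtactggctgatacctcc

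A GATAA match was in 6 of the 6 members' windows, beginning 86 bases before the start in Alas2, 80 in Klf1, 31 in Rhag, 226 in Epb42, 67 in Ermap and 163 in Trim10. Of 32851 promoter windows of the same length in the table, 25.4% held these letters on either strand. CACCC was in 5 of the 6 windows, all but that of Epb42, and in 57.5% of all windows. In Rhag it began 112 bases before the start, outside the printed stretch. Both motifs stood in 5 of the 6 members' windows and in 12.6% of all windows. A match is a run of letters and not a bound site.

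The values are the log2 intensities that the authors deposited, and each group mean below is given with its SD over 3 arrays. A gene counts as called where limma's Benjamini-Hochberg adjusted p over 13644 genes was under 0.05. The genes in the lowest 25% by mean, at or below 4.70, were left out of that fit, which kept Alas2, Slc4a1, Klf1 and Ermap. Slc4a1 passed through its high arrays, since most of its values lay below that level. Epb42, Rhag and Trim10 lay below it, and their tests come from the same fit without the filter over all 18193 genes. Levels of different probe sets are not compared with each other. The nerve label was checked on 7 of 10 genes of Schwann cells and neurons, among which Calb2 lay between 13.35 and 13.76 and Nefl, a neurofilament subunit, between 13.19 and 13.50 on all 15 arrays.

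Before any comparison of groups, 1 feature of the arrays bears on all of them. For 6 of the 7 genes (Alas2, Slc4a1, Klf1, Rhag, Ermap and Trim10), the array of replicate 2 of the 1-day group and that of control replicate 3 both lay above every one of the other 13 arrays. Of all 18193 genes, 148 (0.813%) had this order. The array of 1-day replicate 2, a male, was the highest for 2 of the 7 genes, and that of control replicate 3, a female, for 4. The pair of arrays was singled out after these values were seen, so the count is a description. The members' differences between groups, their spread, the shared globin sets and the calls in the gene lists below are also given without both, a choice made after seeing the data.

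Alas2 encodes the erythroid form of 5-aminolevulinate synthase, the enzyme that starts haem synthesis in red cell precursors. Its log2 intensity (probe set 1451675_a_at) was 5.90, 5.84 and 6.89 in controls, 5.74, 6.18 and 5.99 immediately after noise, 6.10, 6.91 and 5.90 at 1 day, 5.73, 5.95 and 5.70 at 7 days, and 5.70, 5.84 and 5.43 at 14 days. The second 1-day animal stood 0.73 and the third control 0.71 above the highest of the other 13, and every noise group overlapped the controls. Group means were 6.21 ± 0.59 in controls, 5.97 ± 0.22 immediately, 6.30 ± 0.53 at 1 day, 5.79 ± 0.14 at 7 days and 5.66 ± 0.21 at 14 days. The SD in the control and 1-day groups was thus more than that of the other groups, each because of a single array.

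Klf1, the erythroid Krüppel-like factor named above, showed the same order less clearly. Its values (1418600_at) were 5.16, 5.47 and 6.39 in controls, 5.18, 5.42 and 5.02 immediately, 4.85, 5.64 and 5.46 at 1 day, 4.85, 5.58 and 5.29 at 7 days, and 5.29, 5.37 and 5.33 at 14 days. While 1-day replicate 2 passed the highest of the other 13 arrays by 0.06, control replicate 3 stood 0.81 above it. The 14-day animals lay closest together, at 5.33 ± 0.04, and the controls farthest apart, at 5.67 ± 0.64. No time after noise was free of overlap with the controls.

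Slc4a1 encodes band 3, the anion exchanger that is the chief integral protein of the red cell membrane, and it had the widest range of the 7 genes. Its main probe set (1416464_at) read 4.10, 4.24 and 7.63 in controls, 4.48, 4.75 and 4.83 immediately, 4.64, 7.07 and 4.99 at 1 day, 4.48, 4.08 and 4.46 at 7 days, and 4.22, 4.22 and 4.20 at 14 days. The second 1-day animal exceeded the highest of the other 13 arrays by 2.08 and the third control by 2.64. The remaining 1-day values and all 3 immediate ones lay above the first and second controls, and the 14-day values lay between those controls. All 3 animals at 7 days were below all 3 at 1 day. The 1-day mean of 5.57 ± 1.31 and the control mean of 5.32 ± 2.00 rest on 1 array each for most of their height.

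Of the other Slc4a1 probe sets, 1 followed the main set and 1 did not. Probe set 1434502_x_at read 3.70, 3.85 and 8.23 in controls, 3.68, 4.65 and 5.40 immediately, 4.29, 8.04 and 4.95 at 1 day, 3.69, 4.08 and 3.64 at 7 days, and 3.59, 3.94 and 3.84 at 14 days. It set 1-day replicate 2 apart from the other 13 arrays by 2.64 and control replicate 3 by 2.83. Probe set 1431743_a_at stayed between 3.16 and 3.66 on all 15 arrays, its highest value was in a 7-day animal, and neither of the high arrays stood out on it. The lowest value of the scale was 2.06.

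**Figure D1:**
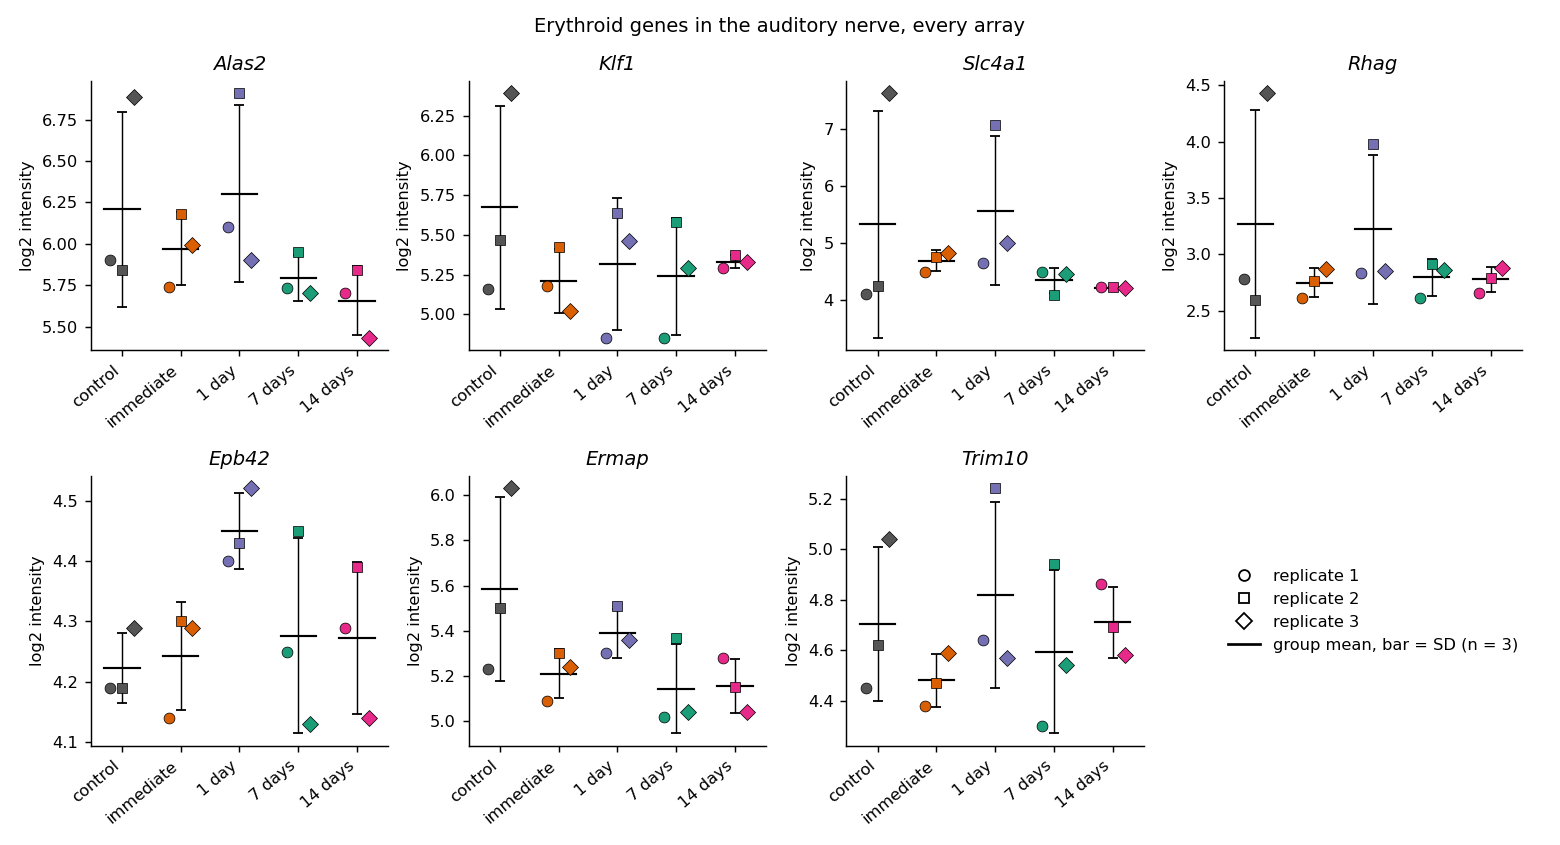
Log2 intensity of the 7 erythroid genes on every array, by group from control to 14 days after noise, with the marker shape giving the replicate number, a line at the group mean and bars of 1 SD (n = 3). Control replicate 3 and 1-day replicate 2 lie highest for all genes but Epb42, and each panel has its own scale, which does not start at 0.

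Rhag encodes the Rh-associated glycoprotein, which carries the Rh proteins to the red cell surface. Its values (1419014_at) were 2.78, 2.59 and 4.43 in controls, 2.61, 2.76 and 2.87 immediately, 2.83, 3.98 and 2.85 at 1 day, 2.61, 2.91 and 2.86 at 7 days, and 2.66, 2.79 and 2.88 at 14 days. The other 13 arrays lay between 2.59 and 2.91, and the second 1-day animal stood 1.07 above the highest of them and the third control 1.52 above it.

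Epb42 encodes protein 4.2, which ties band 3 to the membrane skeleton, and it was the exception among the 7. Its main probe set (1417338_at) read 4.19, 4.19 and 4.29 in controls, 4.14, 4.30 and 4.29 immediately, 4.40, 4.43 and 4.52 at 1 day, 4.25, 4.45 and 4.13 at 7 days, and 4.29, 4.39 and 4.14 at 14 days. All 3 animals at 1 day, which were males, lay above all 3 controls, which were females, and above all 3 immediate animals, while the other times overlapped the controls. The means were 4.45 ± 0.06 at 1 day and 4.22 ± 0.06 in controls, a difference of 0.23 ± 0.10 (SE) with a limma adjusted p of 0.317 in the fit without the filter. Its other probe set (1417337_at) lay between 2.28 and 2.80 and did not repeat that order, with 2.46, 2.56 and 2.28 at 1 day, against 2.53, 2.61 and 2.70 in controls.

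Ermap encodes a butyrophilin-like protein of the red cell surface that carries the Scianna blood group. It read (1418909_at) 5.23, 5.50 and 6.03 in controls, 5.09, 5.30 and 5.24 immediately, 5.30, 5.51 and 5.36 at 1 day, 5.02, 5.37 and 5.04 at 7 days, and 5.28, 5.15 and 5.04 at 14 days. Here 1-day replicate 2 passed the highest of the other 13 arrays by 0.01 and hardly stood apart, whereas control replicate 3 was 0.53 above it.

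Trim10 encodes a tripartite-motif protein that was described in terminal erythroid differentiation in mice. It read (1419311_at) 4.45, 4.62 and 5.04 in controls, 4.38, 4.47 and 4.59 immediately, 4.64, 5.24 and 4.57 at 1 day, 4.30, 4.94 and 4.54 at 7 days, and 4.86, 4.69 and 4.58 at 14 days. Its highest array was 1-day replicate 2, 0.30 above the other 13, which control replicate 3 passed by 0.10.

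The residual SD, which is the spread around the group means over all 15 arrays, was 1.08 for Slc4a1, 0.55 for Rhag, 0.39 for Klf1, 0.39 for Alas2, 0.27 for Trim10, 0.22 for Ermap and 0.11 for Epb42, against a median of 0.13 over 18193 genes. Slc4a1 lay at percentile 99.9 of all genes in this spread, Rhag at 99.3, Klf1 at 98.3, Alas2 at 98.2, Trim10 at 95.1, Ermap at 90.4 and Epb42 at 35.5. Without both high arrays the residual SD was 0.17 for Slc4a1, 0.13 for Rhag, 0.27 for Klf1, 0.17 for Alas2, 0.19 for Trim10, 0.14 for Ermap and 0.12 for Epb42, with a median of 0.13 over all genes. The percentiles then ran between 41.3 for Epb42 and 95.1 for Klf1, with Slc4a1 at 76.3 and Rhag at 49.2. The genes also varied together: over the 21 pairs of members, Pearson's r across the 15 arrays ran between 0.18 and 0.95 with a median of 0.70. Without both high arrays it ran between -0.36 and 0.58 over 13 arrays, with a median of 0.34. These coefficients describe arrays that share groups and preparation.

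Against this spread none of the tested erythroid genes was called at any time after noise, which does not show that their levels were equal. Immediately after noise 0 of the 4 tested members were called, where 0.931% of all 13644 genes were (79 rose and 48 fell). The differences from control were -0.24 ± 0.27 for Alas2 (adjusted p = 0.723), -0.64 ± 0.73 for Slc4a1 (adjusted p = 0.732), -0.47 ± 0.27 for Klf1 (adjusted p = 0.441) and -0.38 ± 0.16 for Ermap (adjusted p = 0.286), each a log2 difference with its limma SE. In the fit without the filter, Rhag differed by -0.52 ± 0.37, Trim10 by -0.22 ± 0.19 and Epb42 by 0.02 ± 0.10, and the smallest of their adjusted p-values was 0.594. The median over the 4 tested members was -0.42, and that over all genes tested was -0.02. At an unadjusted p under 0.05 only Ermap passed, as did 2111 genes of all tested.

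At 1 day, 0 of the 4 members were called, against 3.18% of all genes (207 rose and 227 fell). The values were 0.09 ± 0.27 for Alas2 (adjusted p = 0.906), 0.24 ± 0.73 for Slc4a1 (0.911), -0.36 ± 0.27 for Klf1 (0.540) and -0.20 ± 0.16 for Ermap (0.586), with a median of -0.05 beside -0.01 over all genes. Both of these groups held a high array. The SE of each gene was the same as at the other times, since the spread was fitted over all 5 groups together. No member reached an unadjusted p under 0.05 here among the 4 tested, whereas 2447 genes did.

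At 7 days, 0 of the 4 were called beside 0.022% of all genes (1 rose and 2 fell). Alas2 differed from control by -0.42 ± 0.27 (adjusted p = 0.593), Slc4a1 by -0.98 ± 0.73 (0.647), Klf1 by -0.43 ± 0.27 (0.581) and Ermap by -0.44 ± 0.16 (0.352), and 1525 genes, with Ermap alone of the 4, had an unadjusted p under 0.05. At 14 days, 0 of the 4 were called and 0.0% of all genes, although 1071 genes, Ermap among them, had an unadjusted p under 0.05. The values were -0.55 ± 0.27 for Alas2 (adjusted p = 0.645), -1.11 ± 0.73 for Slc4a1 (0.753), -0.34 ± 0.27 for Klf1 (0.796) and -0.43 ± 0.16 for Ermap (0.556). All 4 tested members had negative differences at each of these times, and their medians were -0.44 and -0.49, where all genes had medians of 0.01 and 0.02. The 4 comparisons share the same 3 controls, so they are not separate evidence of a direction.

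A count of arrays that do not overlap gave the same picture. Of the 7 genes, 0 were free of overlap with the controls immediately after noise, where 18.9% of all 18193 genes were. At 1 day 1 of the 7, Epb42, was free of overlap, again beside 18.9% of all genes. At 7 and 14 days 0 of the 7 were, beside 11.2% and 12.7%.

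Leaving out both high arrays changed the size of the differences and, in several cases, their sign. The sign turned for Rhag at all 4 times, for Slc4a1 at all times but 1 day, for Alas2 immediately, for Trim10 at 7 days and for Klf1 at 14 days. Without them Slc4a1 was 0.52 ± 0.16 above control immediately after noise (adjusted p = 0.248), 0.65 ± 0.17 above at 1 day (adjusted p = 0.191), 0.17 ± 0.16 above at 7 days (0.775) and 0.04 ± 0.16 above at 14 days (0.985). Alas2 then differed from control by 0.10 immediately, 0.13 at 1 day, -0.08 at 7 days and -0.21 at 14 days, each with an SE between 0.15 and 0.17. Rhag differed by 0.06, 0.16, 0.11 and 0.09 in the same order of times, Klf1 by -0.11, -0.16, -0.08 and 0.015, and Ermap by -0.16, -0.04, -0.22 and -0.21. Trim10 differed by -0.06, 0.07, 0.06 and 0.18, and Epb42 by 0.05, 0.27, 0.09 and 0.08, with the 1-day value of Epb42 at an adjusted p of 0.640. The medians of the 4 tested members were 0.00, 0.05, -0.08 and -0.10 at the 4 times, so the negative medians seen with all arrays were close to 0 without them. None of the 4 was called in these fits either, where 0.432%, 0.169%, 0.022% and 0% of all genes were.

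**Figure D2:**
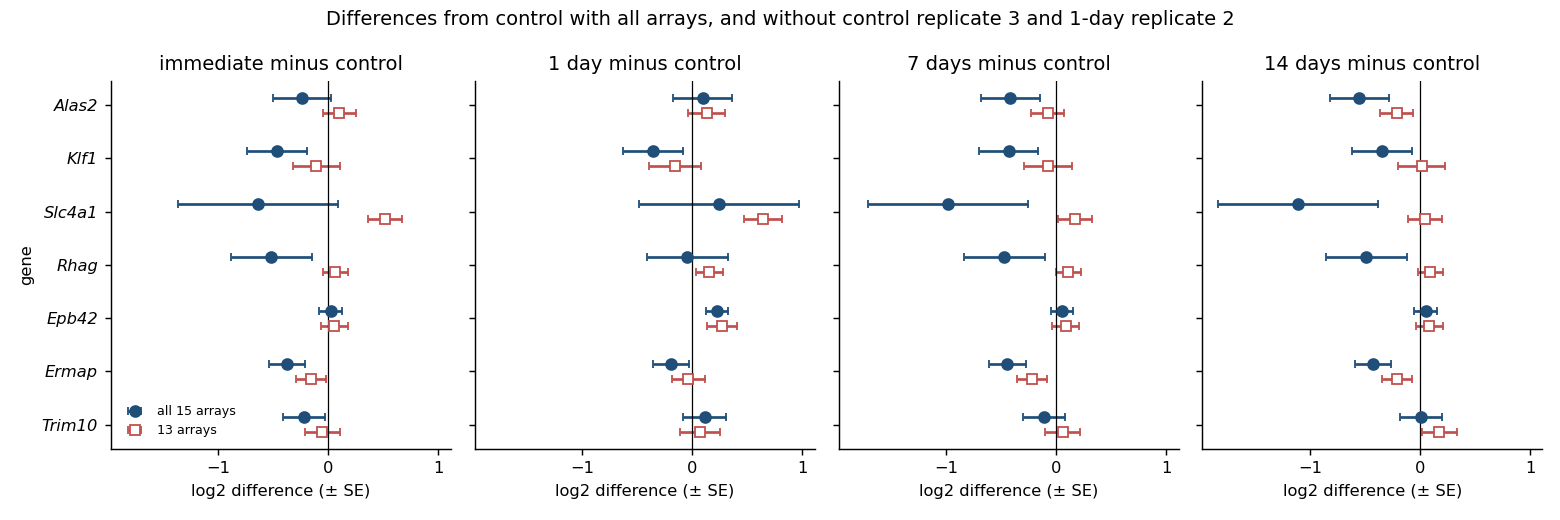
Log2 difference from control of each erythroid gene at the 4 times after noise, with bars of 1 SE, from the fit on all 15 arrays (filled circles) and from the fit on 13 arrays, without control replicate 3 and 1-day replicate 2 (open squares). With all arrays Slc4a1 lies at -0.64 immediately and -1.11 at 14 days, and without the pair at 0.52 and 0.04, and the SE shrinks for most genes.

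Between consecutive times Alas2 had the smallest p of the 4 members that passed the filter in each case. Its value at 1 day differed by 0.33 ± 0.27 from that taken immediately after noise (adjusted p = 0.488), and 0 of the 4 members were called where 8.39% of all genes were. It differed by -0.51 ± 0.27 at 7 days relative to 1 day (adjusted p = 0.249), where 9.35% of all genes were called, and by -0.14 ± 0.27 at 14 days relative to 7 days (adjusted p = 1), where 0.0% were, with 286 genes at an unadjusted p under 0.05. In the fit without the filter the adjusted p-values of Epb42, Rhag and Trim10 between consecutive times were 0.280 or above. All 7 genes lay above their immediate mean at 1 day and below their 1-day mean at 7 days, and without both high arrays 6 of the 7 did so in each case, all but Klf1. Both counts rest on the same 1-day animals, all males, and on genes that varied together. They are not separate evidence of a direction, and the share of all genes with such an order was not counted. Free of overlap were 1 of the 7 at 1 day relative to immediately (Epb42, beside 24.7% of all genes) and 1 of the 7 at 7 days relative to 1 day (Slc4a1, beside 19.9%). Without both arrays the 7-day value of Slc4a1 was 0.48 ± 0.16 lower than the 1-day value on the log2 scale (difference -0.475, adjusted p = 0.124). In the test of any difference among the 5 groups, 6.75% of all genes were called and 0 of the 4 members, with adjusted p-values of 0.325 for Alas2, 0.502 for Slc4a1, 0.645 for Klf1 and 0.232 for Ermap.

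Globin, the bulk of red cell protein, was measured by 4 probe sets that the annotation pairs with several globin genes at once, so none can be given to a single gene. Probe set 1417184_s_at, paired with 4 globin genes, read 11.96, 11.89 and 13.09 in controls, 11.74, 12.35 and 12.34 immediately, 12.15, 13.14 and 12.43 at 1 day, 11.95, 11.48 and 11.92 at 7 days, and 11.90, 11.73 and 11.75 at 14 days. The same pair of arrays was highest as for the members, on this set and on the other 3. On 1417714_x_at the 1-day arrays read 8.65, 9.79 and 8.91, against 8.53, 8.23 and 10.01 in controls. In a separate fit of the 932 probe sets with several genes, the 4 sets had limma adjusted p-values between 0.435 and 0.863 against control over the 4 times. Without both high arrays these were between 0.604 and 0.945, and the 4 sets differed from control by 0.30 to 0.40 at 1 day, with SEs between 0.15 and 0.21. The probe sets paired with a single globin gene (Hba-a1, Hba-a2, Hba-x, Hbb-b2 and Hbb-y) did not put both arrays above the other 13. Of these, Hba-a1 (3.17 to 3.75), Hbb-y (3.05 to 3.64) and Hba-x (4.27 to 4.73) lay below the filter. Hba-a2 read between 4.79 and 5.19 and Hbb-b2 between 5.29 and 5.95. Sets this low can tell little about whether single globin genes followed the shared sets.

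**Figure D3:**
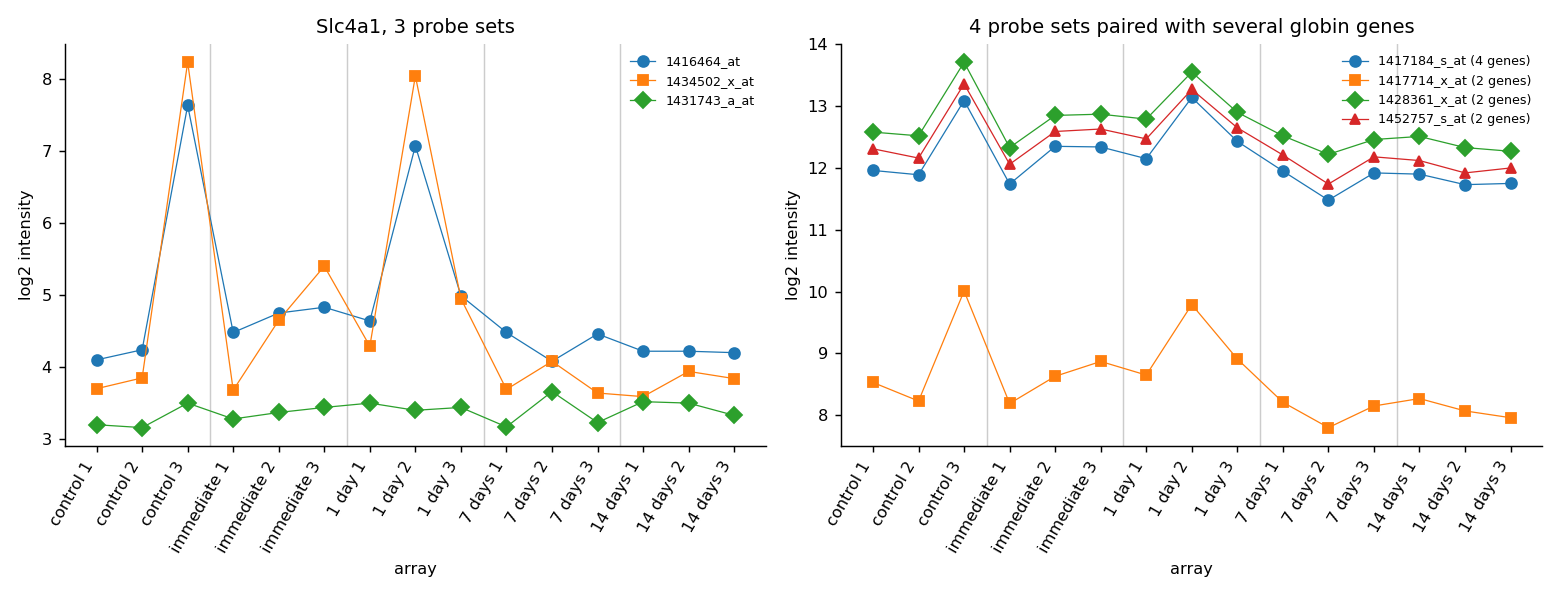
Log2 intensity on each of the 15 arrays, in the order of the groups, for the 3 probe sets of Slc4a1 (left) and the 4 probe sets paired with several globin genes (right). Control replicate 3 and 1-day replicate 2 are the peaks of 2 of the 3 Slc4a1 sets and of all 4 globin sets, and 1431743_a_at stays between 3.16 and 3.66.

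Of 52 further erythroid genes listed for comparison, 42 were found and 30 were tested. Both high arrays lay above the other 13 for 4 of the 42, namely Hemgn, Car1, Kel and Aqp1, beside 0.813% of all genes. The arrays were singled out on the members, but this list too was chosen with earlier results of these data known, so the count is a description. Hemgn, a nuclear protein of haematopoietic cells, read 2.79, 5.57 and 3.13 at 1 day, against 2.66, 2.70 and 6.10 in controls, and at most 3.61 in the other groups. Car1, the carbonic anhydrase abundant in red cells, read 6.28 in 1-day replicate 2 and 5.62 in control replicate 3, where the other 13 arrays lay between 3.95 and 4.80. Kel, the Kell blood group protein, read 3.96 in 1-day replicate 2 and 4.67 in control replicate 3, with the others between 3.29 and 3.67.

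The erythroid transcription factors other than Klf1 did not follow in both arrays. Nfe2 read 4.03 in 1-day replicate 2 and 5.18 in control replicate 3, Gata1 read 4.52 and 4.89, and Tal1 read 4.40 and 5.06. Each was thus highest in the third control and within the range of the remaining arrays in the second 1-day animal. These factors are known in megakaryocytes as well as in erythroid cells.

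At 1 day 2 of the 30 (6.67%) were called and both fell relative to control, beside 3.18% of all genes, and the median of the 30 was -0.03. Tfrc, the transferrin receptor that brings iron into cells, read 10.75, 10.72 and 10.77 at 1 day, against 11.65, 11.57 and 11.59 in controls. The groups did not overlap, and the difference was -0.86 ± 0.11 (limma adjusted p = 0.0013), which held when any 1 array was left out, with differences between -0.87 and -0.83, and without both high arrays (-0.85, adjusted p = 0.043). Uros, a haem synthesis enzyme, fell by 0.45 ± 0.11 on the log2 scale (adjusted p = 0.044), and its call ended in 10 of the 15 fits without 1 array (adjusted p = 0.198 without 1-day replicate 2), without both high arrays (-0.33, adjusted p = 0.444) and with sex as a term (adjusted p = 0.160). Neither Tfrc nor Uros had the members' order. Tfrc read 10.72 and Uros 8.62 in 1-day replicate 2, below the other 13 arrays (10.75 to 11.65 and 8.70 to 9.40). Control replicate 3 lay within those ranges. Which cells the transcripts of this list came from was not tested. Against control 0 of the 30 were called immediately, at 7 days and at 14 days. The smallest p immediately belonged to Uros (-0.46 ± 0.11, adjusted p = 0.072) and Lmo2, a transcription cofactor (-0.24 ± 0.09, 0.213). At 7 days it belonged to Tfrc (-0.36 ± 0.11, 0.277) and Tmod1, an actin-capping protein (-0.23 ± 0.09, 0.375), and at 14 days to Tfrc (-0.34 ± 0.11, 0.515) and Car2, a carbonic anhydrase (0.30 ± 0.10, 0.528).

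At 1 day relative to immediately 2 of the 30 (6.67%) were called, beside 8.39% of all genes. Tfrc fell by 0.59 ± 0.11 (adjusted p = 0.0057), and Fbxo7, an F-box protein, rose by 0.28 ± 0.07 (0.025). At 7 days relative to 1 day 6 of the 30 (20%) were called, beside 9.35% of all genes. Tfrc rose by 0.50 ± 0.11 (adjusted p = 0.012), Uros by 0.49 ± 0.11 (0.016), Ank1, the ankyrin that ties the membrane to spectrin, by 0.33 ± 0.09 (0.043), Tmcc2 by 0.30 ± 0.08 (0.024) and Gypc, glycophorin C, by 0.25 ± 0.07 (0.036), while Tmod1 fell by 0.44 ± 0.09 (0.0093). Of these 8 calls, that of Tfrc at 1 day relative to immediately and that of Tmcc2 were kept without both high arrays, with adjusted p-values for the others between 0.070 and 0.130. The 1-day group was the only one of 3 males, and with sex as a term the calls of Tfrc and Tmod1 were kept, while those of Fbxo7, Uros, Ank1, Tmcc2 and Gypc had adjusted p-values between 0.055 and 0.130. With only the 7-day and 1-day groups in the fit, 0 of the 30 were called, with adjusted p-values of 0.106 for Tfrc and 0.065 for Tmod1, and 200 of all genes were. With the mean over a gene's probe sets, Tfrc (adjusted p = 0.095), Uros (0.051) and Ank1 (0.948, difference 0.012) were not called at 7 days relative to 1 day. Relative to 7 days 0 of the 30 were called at 14 days, where Tmod1 differed by 0.23 ± 0.09 and Car2 by 0.15 ± 0.10 (adjusted p = 1 for both).

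Marker lists of other cells that a bony tissue could hold were set beside the erythroid genes, each as a sum of linear intensities over its found genes. The 7 erythroid genes summed to between 215 and 425 at 1 day and between 197 and 540 in controls, and stayed between 182 and 230 in the other groups. Granulocytes and their precursors (14 of 16 genes found) summed to between 526 and 4820 in controls, 666 and 3500 immediately, 717 and 1150 at 1 day, 568 and 1200 at 7 days, and 393 and 473 at 14 days. Control replicate 3 was highest, as for the erythroid genes, but the next highest was immediate replicate 3 and not 1-day replicate 2. S100a8, a calcium-binding protein of neutrophils, read 6.88, 8.20 and 10.82 in controls, 7.47, 9.40 and 10.45 immediately and 7.50, 8.11 and 8.55 at 1 day, and S100a9 ranged between 5.41 and 10.49 over all arrays.

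Within that list some genes of early granulocyte precursors came nearer to the erythroid order, and others did not. Mpo, the myeloperoxidase of primary granules, read 6.91 in 1-day replicate 2, 7.35 in control replicate 3 and 6.28 in immediate replicate 3, with the others at most at 4.96. Ctsg, cathepsin G, read 5.47, 5.27 and 5.11 on the same arrays in that order, with the others at most at 4.48. Elane, neutrophil elastase, did not have that order. It was highest in control replicate 3, at 5.14, but 1-day replicate 2 lay below 7-day replicate 2 (4.97) and immediate replicate 3 (4.94). Ngp, a protein of secondary granules, read 6.27 in 1-day replicate 2 and 8.88 in control replicate 3.

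Megakaryocyte and platelet genes (9 of 10 found) summed to between 596 and 646 at 1 day and between 425 and 1520 in controls, and set control replicate 3 apart alone. Ppbp, a platelet chemokine, read 8.68 there and between 2.71 and 4.11 on all other arrays, and Pf4 read 8.15, 8.04 and 8.27 at 1 day, against 6.61, 6.90 and 9.21 in controls. Itga2b, the platelet integrin subunit, lay between 6.85 and 7.63. Bone genes (7 of 8 found) summed to between 2410 and 3410 at 1 day and between 4260 and 8040 in controls. Dmp1, of osteocytes, read 10.57, 11.05 and 10.85 at 1 day, against 11.48, 11.41 and 12.01 in controls, and Mepe ranged between 7.82 and 9.77. Of the bone genes 2 of 7 tested fell at 1 day, where 3.18% of all genes were called, and 0 were called at any other time.

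Genes of dividing cells (9 of 10 found) summed to between 1890 and 2050 at 1 day and between 1570 and 1970 in controls. Pcna, the brightest of the list, weighs most in that sum and lay between 10.38 and 10.65 on all arrays. Cdk1 read 6.41, 6.40 and 6.32 at 1 day, against 5.53, 6.08 and 6.86 in controls. As a mean of centred log2 values, the dividing cell list read 0.79 in control replicate 3 and 0.69 in 1-day replicate 2. The first and second controls read -0.18 and -0.14, and 1-day replicates 1 and 3 read 0.22 and 0.30. Macrophage genes (10 of 10 found) summed to between 3300 and 3630 at 1 day and between 2520 and 2710 in controls, with 4 of 9 tested called as higher at 1 day, beside 3.18% of all genes called in either direction. Vcam1 among them lay between 9.58 and 10.20 and Csf1r between 9.18 and 9.88. B cell precursor genes (9 of 10 found) summed to between 1070 and 1400 at 1 day and between 990 and 1180 in controls, with Ebf1 between 9.23 and 10.24 and Igll1 between 5.74 and 6.43. Ebf1, the brightest of the list, weighs most in that sum and was highest in 1-day replicate 2. Igll1, Vpreb1 (4.62), Vpreb3 (5.73) and Cd79b (4.32) were highest in control replicate 3. Cd79a, Dntt and Pax5 were highest in 7-day replicate 2, and Rag1 in control replicate 2. Genes of Schwann cells and neurons summed to between 38600 and 39800 at 1 day and between 43700 and 44700 in controls, and 1 of 7 fell at 1 day. The 1-day animals were all male and the controls all female, and these list calls were not repeated with sex as a term. With that term 75 of all genes were called at 1 day. Against control no other call was made in these lists at any time with all arrays. Without both high arrays the calls at 1 day were 1 rise among the macrophage genes and 1 among the platelet genes, and none in the other lists or at other times. The part of these cells in the erythroid values was not tested.

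**Figure D4:**
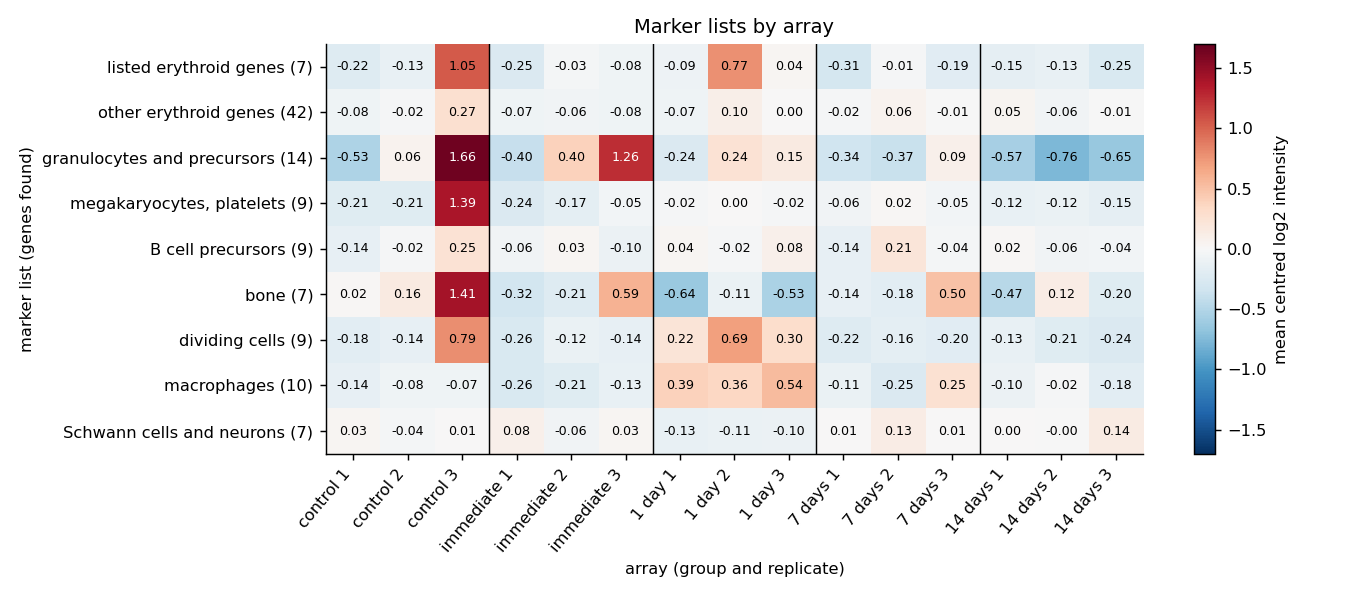
Mean log2 intensity of each marker list on each array, every gene centred on its mean over the 15 arrays, with the number of genes found in brackets and red for values above that mean. Control replicate 3 is high for the erythroid, granulocyte, platelet, bone and dividing cell lists, while 1-day replicate 2 is high for the erythroid and dividing cell lists and, with the other 1-day arrays, for the macrophage list.

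The tested genes whose profile was most like the mean of the 4 tested members, by Pearson's r over the 15 arrays, were Mki67 (0.94), Ctse (0.93), Pclaf (0.91), Pttg1 (0.91), Mpo (0.90), Ighm (0.88), Prtn3 (0.87) and Plac8 (0.86). Over the 13 arrays without the high pair r was 0.70 for Mki67, 0.61 for Ctse, 0.63 for Pclaf, 0.65 for Pttg1, 0.47 for Mpo, 0.34 for Ighm, 0.42 for Prtn3 and 0.41 for Plac8. Mki67, a protein of dividing cells, read 5.39, 6.88 and 5.72 at 1 day, against 4.34, 4.48 and 7.57 in controls, and at most 4.98 elsewhere. All 3 of its 1-day values thus lay above the first and second controls, as did those of Slc4a1, Rhag and Epb42. Those of Alas2, Klf1, Ermap and Trim10 did not, and replicate 3 of Alas2 at 1 day was level with the first control. Ctse, cathepsin E, read 5.23, 7.60 and 5.81 at 1 day, against 4.86, 5.54 and 7.19 in controls. These coefficients rest largely on the pair of high arrays and describe 15 arrays that share groups.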

How the data were processed

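Total RNA of the modiolus was measured on 15 arrays, and per the submitters' processing notes Affymetrix Expression Console, RMA and MAS5 were used, with no versions given. The deposited values are on a log2 scale, from 2.06 to 14.63, with array medians between 5.87 and 5.92, and were used as deposited. Whether RMA or MAS5 made them is not stated in these sources. Identical values made up at most 3.67% of any pair of arrays. Of 45101 probe sets, 34945 paired with 1 gene, 932 with several and 9160 with none, and 64 were controls. For each of 18193 genes the brightest 1-gene probe set on average was taken, and the lowest 25% were left out.

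Group means were fitted over all 15 arrays with limma 3.58.1 in R 4.3.3 (lmFit, eBayes with trend, 10 residual degrees of freedom), two-sided, with Benjamini-Hochberg adjustment within each of 7 contrasts. The number of arrays limits the precision. The functions were tested on simulated data. Named were all members and the called genes of the further erythroid list, or the 2 with the smallest p where none was called. The planned cap of 3 called genes a direction was not applied. Also named were the 2 genes with the highest mean of each marker list and the 8 genes of most like profile. Other genes of these lists were named after their values were seen. The members and lists were chosen with earlier results of these data known. Alternatives were the filter, the handling of probe sets, sex, the replicate number as a block, the groups fitted, array weights, the eBayes trend, quantile normalization, female arrays alone and each array left out.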

Additional observations from a re-analysis of the deposited data

Results flagged for a closer look

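Among the further erythroid genes, the difference between consecutive times after noise passed the test for these, each on the log2 scale. At 1 day relative to the immediate time, Fbxo7 differed by 0.28 and Tfrc by -0.59. At 7 days relative to 1 day, Tfrc differed by 0.50, Uros by 0.49, Ank1 by 0.33, Tmcc2 by 0.30, Gypc by 0.25 and Tmod1 by -0.44. Without both high arrays the calls of Tfrc at 1 day relative to immediately and of Tmcc2 were kept, and those of the other 6 were not. The shared globin probe set 1417184_s_at, outside the tests of single genes, read 13.14 in 1-day replicate 2, above the highest control at 13.09.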

How the results depend on the processing

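None of the erythroid genes that entered a fit was called under any alternative run, and over 484 values of Alas2, Slc4a1, Klf1 and Ermap the smallest adjusted p was 0.0869. Leaving out the lowest 50% of genes removed these 4 as well, and Epb42, Rhag and Trim10 are given only from the fit without the filter. The counts over all genes moved more. That stricter filter gave 7 calls at 7 days. Testing every probe set gave 246 immediately, 16 at 7 days and 1679 over the 5 groups. With sex as a term there were 79 immediately, 75 at 1 day, 652 and 449 for 1 day relative to immediately and 7 days relative to 1 day, and 435 over the groups. Array weights gave 757, 1106 and 1 at the immediate, 1-day and 14-day times, 1898 and 710 between those pairs of times, and 1798 over the groups. Female arrays alone gave 8 immediately and no value at 1 day. Fitting only the 2 groups compared gave 1 at 7 days and 200 for 7 days relative to 1 day. Without control replicate 3 and 1-day replicate 2 there were 59, 23, 341, 316 and 190 calls (immediate, 1 day, both pairs of times, the groups); the fit then has fewer arrays.

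With 1 array left out, calls ranged between 29 and 171 immediately, 112 and 582 at 1 day, 2 and 50 at 7 days, 0 and 1 at 14 days, 382 and 1311 for 1 day relative to immediately, 429 and 1329 for 7 days relative to 1 day, 0 and 1 for 14 days relative to 7 days, and 307 and 1275 over the groups, lowest without immediate replicate 3 or 1-day replicate 2 in the larger counts. The 50 calls came without 7-day replicate 1. Where signs of members turned, this was without control replicate 3, apart from Alas2 and Slc4a1 at 1 day. Those kept their sign without control replicate 3 and turned without either other control or 1-day replicate 2. Slc4a1 ranged between -1.25 and 0.52 immediately, -0.51 and 1.40 at 1 day, -1.60 and 0.17 at 7 days and -1.72 and 0.043 at 14 days. Alas2 ranged between -0.43 and 0.10 immediately and -0.21 and 0.43 at 1 day, Klf1 between -0.61 and 0.0017 at 1 day and -0.60 and 0.015 at 14 days, and Ermap between -0.38 and 0.025 at 1 day. The upper ends are all without control replicate 3. Without both arrays Alas2 was 0.10 immediately, Slc4a1 0.52, 0.17 and 0.043 at the immediate, 7-day and 14-day times, and Klf1 0.015 at 14 days.

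Same-numbered arrays showed little shared variation, with median correlations of 0.09, 0.00 and 0.07 for numbers 1 to 3 and single pairs between -0.33 and 0.30. The main fit did not take the numbers as pairs, and these values cannot settle whether same-numbered arrays shared a preparation. With the replicate number as a block Uros at 1 day had an adjusted p of 0.0506, and no member's call changed. The mean over probe sets gave no value for Slc4a1, which then lay below the filter.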
